A study of Gossypium hirsutum with 6 samples.

Results

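GDSL esterases and lipases are hydrolases of ester bonds, and 191 of the 72761 genes in the deposited table of upland cotton (Gossypium hirsutum) leaf transcripts belong to them by their description. The members are every row whose protein description contains the words GDSL esterase/lipase. The rule reads the description alone, and no other row carries the word GDSL in its description. Levels are in FPKM, which corrects a gene's fragments for its length and for the size of the library, so they can be set side by side between genes. The study asks how FPF1, flowering promoting factor 1, takes part in shade-induced growth of the stem and leaf stalks (shade avoidance), together with the transcription factor NF-YA3. The groups are 3 leaf libraries of transgenic lines whose titles carry the name FPF1, and 3 leaf libraries of the wild type, titled W10. The study both mutated FPF1 and expressed it constitutively, and the labels do not say which these lines carry. They give no promoter, line number, plant age, planting density or hour of collection, and they do not say whether replicates were separate plants, so every p reflects the variation among these 6 libraries alone, part or all of which may be technical.

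The libraries of the transgenic lines carried 133, 199 and 195 FPKM of GH_D02G0524, an FPF1-like gene, against 0, 0 and 0.467 FPKM in the wild-type libraries. The transcript of this gene was thus gained, not lost, in the transgenic lines. The number of genes listed above 0 ran from 52646 to 53560 in the transgenic libraries and from 52037 to 53129 in the wild-type libraries. The tissue label was checked against leaf markers, chlorophyll a-b binding proteins and the small subunit of RuBisCO. These 53 genes summed to 2242 to 2877 FPKM in the transgenic libraries and to 3841 to 5328 FPKM in the wild-type libraries. Of 22 genes listed as root markers, 21 were at 0 in every library. Replicates of a group did not always lie close together.

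In plants, enzymes of this family carry their active serine in a GDSL motif near the start of the protein, and most are secreted to the cell wall. Members from tomato and Arabidopsis are cutin synthases, which join hydroxy fatty acids into the polyester of the cuticle outside the epidermis. Others act in Arabidopsis on suberin, the related polyester of root and wound barriers. Further members serve defence against fungi, the lipid coat of pollen, or the breakdown of seed oil. Cotton members bear names of Arabidopsis loci (such as At1g74460) or of characterised proteins (such as LTL1), which the authors' annotation transferred to them by similarity. The deposited annotation places 159 of the 191 in the extracellular region, and 12 carry the term cuticle development. Its enzyme numbers are transferred too, 76 being that of phospholipid:diacylglycerol acyltransferase, 34 that of acetylajmaline esterase and 20 that of alpha-L-fucosidase.

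The family as a whole amounted to 1277, 1396 and 1510 FPKM in the transgenic libraries 1 to 3 and to 1238, 1057 and 1040 FPKM in the wild-type libraries 1 to 3. The groups did not overlap in this sum of deposited FPKM, which no test was run on. The separation was narrow and depended on scaling. Median-of-ratios scaling divides transgenic library 1 by 1.016 and wild-type library 1 by 0.973, which makes the groups overlap. In bulk leaf RNA, fewer cells of a type and less RNA per cell cannot be told apart. A few genes carried much of the sum. The 5 most abundant members made up 25.96% to 35.8% of it in the transgenic libraries and 33.6% to 33.9% in the wild-type libraries. At the other end of the family 32 members were listed at 0 in every library, and 56 more were above 0 in at least 1 library but had a mean under 1 FPKM in each group. These 88 were not tested. The remaining 103 averaged 1 FPKM or more in one group or both and entered the fit over all 43837 such genes. Among the 103, 84 reached that level in both groups, 18 in the transgenic libraries alone and 1 in the wild type alone.

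Of the 103 tested members, 13 rose and 2 fell in the transgenic libraries at an adjusted p under 0.05 (limma on log2(FPKM + 1), Benjamini-Hochberg over all 43837 genes). Among all tested genes 3.92% rose, 1.78% fell and 5.7% were called in either direction, against 12.6%, 1.94% and 14.6% of the tested members. A difference of at least 2-fold on the log2(FPKM + 1) scale was met by 13 of the 15 called, 12.6% of the tested members against 2.95% of all tested genes. The share of falls is near the background. Of the 13 rises, 7 came from genes that reached 1 FPKM in the transgenic group alone, so that the filter itself favoured a difference. The other 6 had a mean of at least 1 FPKM in both groups. With genes kept by their mean over all 6 libraries, a filter that ignores the groups, 12 of 97 members rose and 2 fell, against 3.9% and 1.79% of all genes. The median log2 difference was 0.33 over the tested members and 0.08 over all tested genes. It was 0.20 over the 84 members that passed in both groups. The groups did not overlap in 36 tested members, 35.0% against 30.1% of all tested genes, with 32 higher (20.6% of all tested genes) and 4 lower (9.51% of all tested genes) in the transgenic libraries. Of the 36, 21 were not called, 19 higher and 2 lower.

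The number of calls leaned on single libraries. Without transgenic library 2 only 3 members were called higher and none lower, and without transgenic library 3 or without wild-type library 1 it was 5 and none each. Calls over all genes dropped too, to 0.659%, 1.84% and 0.957%. The 3 rises called in each of the 6 fits that left out 1 library were GH_A03G1544, GH_D02G1725 and GH_D10G1024.

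**Figure D1:**
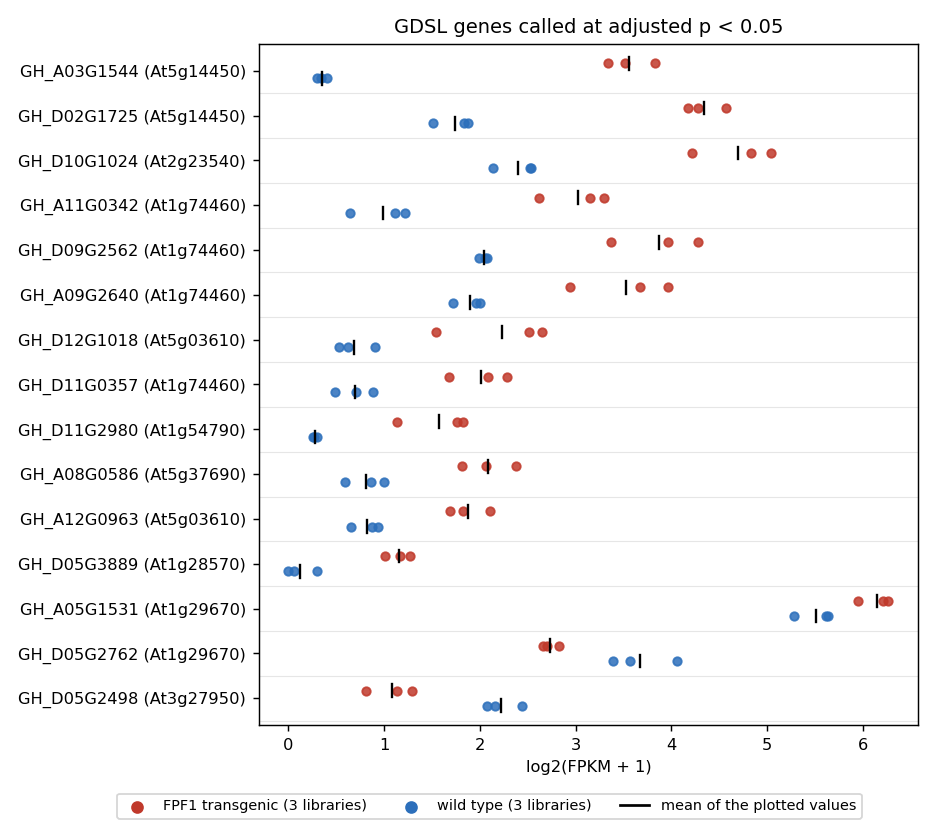
Levels of the 15 called GDSL genes in each library, as log2(FPKM + 1) on the horizontal axis, with 1 gene per row and its name in brackets. Red points are the 3 FPF1 transgenic libraries, blue points below them the 3 wild-type libraries, and black bars the mean of the plotted values. The groups do not overlap in any of the 15, and only the lowest 2 rows lie lower in the transgenic libraries.

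The largest rise was that of GH_A03G1544, described as At5g14450-like, a name whose members carry the transferred enzyme number of alpha-L-fucosidase. It had 10.4, 9.08 and 13.2 FPKM in the transgenic libraries, against 0.325, 0.263 and 0.229 FPKM in the wild-type libraries. Every transgenic library lay far above every wild-type library. The gene passed the filter through the transgenic libraries alone. The means were 10.9 ± 2.09 and 0.272 ± 0.0489 FPKM (SD, n = 3 each), a ratio of 40.0, and a log2 difference of 3.21 (standard error 0.17, adjusted p = 0.000426).

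The second of this name to rise, GH_D02G1725 on the D subgenome, was at 18.3, 17.003 and 22.8 FPKM in the transgenic libraries, against 1.86, 2.57 and 2.66 FPKM in the wild-type libraries. Its means of 19.4 ± 3.03 and 2.36 ± 0.440 FPKM (SD, n = 3 each) gave a ratio of 8.20 and a log2 difference of 2.60 (standard error 0.16, adjusted p = 0.00087). Of the 10 genes of this name 3 were at 0 throughout and 4 were tested. The other tested pair, on A07 and D07, was more abundant and was not called. GH_D07G2483, the higher of them, had 40.8, 34.6 and 28.6 FPKM in the transgenic libraries and 28.4, 22.2 and 28.7 FPKM in the wild-type libraries (log2 0.38, adjusted p = 0.208), with groups that overlapped. GH_A07G2540 had 31.4, 29.7 and 27.3 FPKM in the transgenic libraries and 27.1, 24.3 and 23.0 FPKM in the wild-type libraries (log2 0.24, adjusted p = 0.222), with groups that did not overlap.

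GH_A03G1544 sits in a run of 4 members with consecutive gene numbers on chromosome A03, and its groups were the only ones of the run that did not overlap. GH_A03G1543, of the same name, was too low to be tested and had 1.11, 0.566 and 0.588 FPKM in the transgenic libraries and 1.09, 0.703 and 0.805 FPKM in the wild-type libraries. GH_A03G1545, described as At3g26430-like, was the third most abundant member of the family, with 84.1, 50.7 and 47.5 FPKM in the transgenic libraries and 82.2, 69.2 and 97.3 FPKM in the wild-type libraries. It was not called (log2 -0.48, adjusted p = 0.262), and the groups overlapped. The last of the run, GH_A03G1546, stayed under 1 FPKM in every library. On D02 the run was shorter, with GH_D02G1724 at 0.204 to 0.318 FPKM in the transgenic libraries, against 0.167 to 0.417 FPKM in the wild-type libraries beside GH_D02G1725. Close neighbours can share reads, and how such reads were counted is not given in the sources used here.

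**Figure D2:**
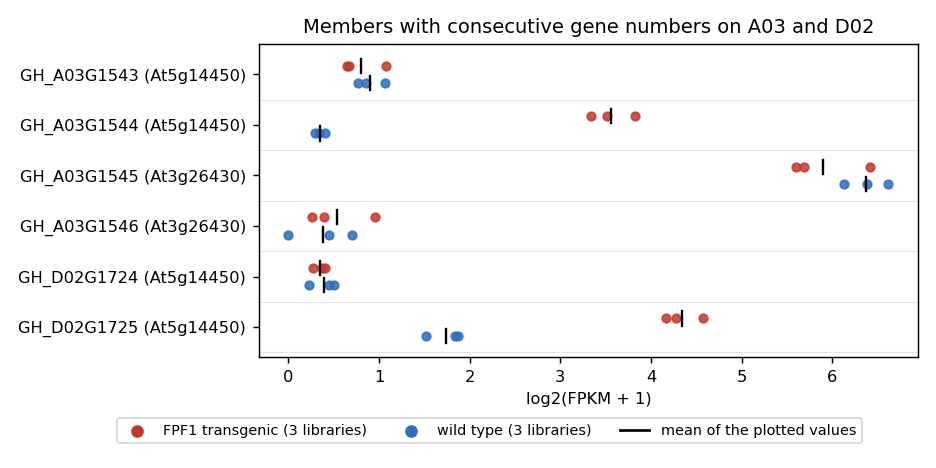
Levels of the 6 members with consecutive gene numbers around the pair of At5g14450-like genes that rose, as log2(FPKM + 1), with red points for the 3 FPF1 transgenic libraries, blue points for the 3 wild-type libraries and black bars for the mean of the plotted values. GH_A03G1544 and GH_D02G1725 separate the groups, while the neighbours in gene number show overlapping groups.

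All 4 genes of the name At1g74460 rose, and no other name with at least 3 tested members had every tested member called. GH_D09G2562, the most abundant, had 9.34, 14.7 and 18.4 FPKM in the transgenic libraries, against 3.20, 2.98 and 3.15 FPKM in the wild-type libraries. Its means were 14.1 ± 4.57 and 3.11 ± 0.112 FPKM (SD, n = 3 each; ratio 4.55, log2 1.84, standard error 0.22, adjusted p = 0.00903). The transgenic libraries differed among themselves by more than the wild-type libraries did.

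GH_A11G0342 had 5.14, 7.89 and 8.84 FPKM in the transgenic libraries and 0.557, 1.16 and 1.32 FPKM in the wild-type libraries (log2 2.04, adjusted p = 0.00822). GH_A09G2640 had 6.70, 11.8 and 14.6 FPKM in the transgenic libraries and 2.29, 3.01 and 2.90 FPKM in the wild-type libraries (log2 1.63, adjusted p = 0.018). GH_D11G0357 was the lowest of the name, at 2.19, 3.87 and 3.25 FPKM in the transgenic libraries, against 0.631, 0.844 and 0.404 FPKM in the wild-type libraries (log2 1.32, adjusted p = 0.0212). Transgenic library 1 was the lowest of its group in each of the 4 genes. None of the 4 was called without transgenic library 2, where adjusted p lay between 0.0575 and 0.098. Without transgenic library 3, or without wild-type library 1, only GH_D09G2562 and GH_A11G0342 were called.

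GH_D10G1024, described as At2g23540-like, reached a higher level than any of these. It was at 17.6, 27.5 and 31.9 FPKM in the transgenic libraries, against 3.38, 4.77 and 4.75 FPKM in the wild-type libraries. The means of 25.7 ± 7.34 and 4.30 ± 0.796 FPKM (SD, n = 3 each) gave a ratio of 5.97 and a log2 difference of 2.30 (standard error 0.23, adjusted p = 0.00497). It was the only tested gene of its name.

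The names At5g37690 and At1g54790 each held 1 call on one subgenome and a tested, uncalled gene on the other. Under At5g37690, GH_A08G0586 rose, with 2.50, 4.19 and 3.17 FPKM in the transgenic libraries and 0.501, 0.998 and 0.812 FPKM in the wild-type libraries (log2 1.27, adjusted p = 0.0217). GH_D08G0584 of the same name had 1.88, 4.93 and 3.01 FPKM in the transgenic libraries and 0.497, 1.24 and 0.564 FPKM in the wild-type libraries, with a log2 difference of 1.24 that was not called (adjusted p = 0.0595). It was called without transgenic library 1 (adjusted p 0.0459 to 0.185 over the fits that left out 1 library) and with the replicate number as a block (adjusted p = 0.0404). The groups overlapped in neither. Under At1g54790, an Arabidopsis locus of the seed fatty acid reducer group, GH_D11G2980 rose to 1.1998, 2.38 and 2.55 FPKM in the transgenic libraries, against 0.190, 0.230 and 0.202 FPKM in the wild-type libraries (log2 1.302, adjusted p = 0.0275).

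GH_A11G2950 of that name had 1.19, 3.13 and 3.30 FPKM in the transgenic libraries and 0.555, 0.325 and 0.712 FPKM in the wild-type libraries (log2 1.15, adjusted p = 0.0665), and was called without transgenic library 1 (adjusted p 0.023 to 0.218 over the fits that left out 1 library). A p that misses the threshold does not show that the A and D genes differ, and their difference was not tested. Both calls in these names ended without transgenic library 2, transgenic library 3 or wild-type library 1 (adjusted p up to 0.0959 for GH_A08G0586 and 0.121 for GH_D11G2980), and that of GH_D11G2980 with the block (adjusted p = 0.0521).

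The remaining rises were of genes under 1 FPKM in the wild type, and of 1 abundant gene. The name At5g03610 had 2 rises among 6 tested genes. GH_D12G1018 was at 1.90, 4.72 and 5.28 FPKM in the transgenic libraries, against 0.443, 0.873 and 0.540 FPKM in the wild-type libraries (log2 1.55, adjusted p = 0.0358). GH_A12G0963 was at 2.23, 2.53 and 3.31 FPKM in the transgenic libraries, against 0.829, 0.576 and 0.911 FPKM in the wild-type libraries (log2 1.05, adjusted p = 0.027). The most abundant of the name, GH_A04G0757, averaged 16.6 ± 0.657 FPKM in the transgenic libraries and 12.8 ± 3.88 FPKM in the wild-type libraries (SD, n = 3 each) without a call (adjusted p = 0.272). The rise of GH_D12G1018 was called only without transgenic library 1 or wild-type library 2 among the fits that left out 1 library, and that of GH_A12G0963 was lost without transgenic library 2, transgenic library 3 or wild-type library 1 (adjusted p up to 0.147 and 0.105). The call of GH_D12G1018 also ended without a filter on low values (adjusted p = 0.0545), and that of GH_A12G0963 with the replicate block (adjusted p = 0.0535).

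Under At1g28570 all 3 tested genes were near 0 in the wild type and near 1 FPKM in the transgenic libraries. GH_D05G3889 had 1.41, 1.02 and 1.24 FPKM in the transgenic libraries and 0.228, 0.0439 and 0 FPKM in the wild-type libraries (log2 1.03, adjusted p = 0.0354), a call that ended whichever library was left out (adjusted p 0.0628 to 0.108), with a pseudocount of 0.1 and with the replicate block (adjusted p up to 0.0748). GH_D05G3891 was the only tested member listed at 0 throughout a group, at 1.01, 0.585 and 1.54 FPKM in the transgenic libraries, against 0 in all 3 wild-type libraries, and it was not called (adjusted p = 0.0567). It was called with a pseudocount of 0.5, without a filter and without the variance trend (adjusted p = 0.049998, 0.0376 and 0.0318), and adjusted p ran up to 0.171 over its other settings. GH_A04G0173 had 0.690, 1.89 and 1.21 FPKM in the transgenic libraries and 0.160, 0.220 and 0.0946 FPKM in the wild-type libraries (adjusted p = 0.0754). All 3 passed the filter through the transgenic libraries alone. The 1 tested gene of the next locus name, GH_D05G3893 (At1g28580-like), lay lower in the transgenic libraries, at 1.79, 1.37 and 1.95 FPKM against 3.33, 2.46 and 2.80 FPKM in the wild-type libraries; it was not called (log2 -0.51, adjusted p = 0.13).

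The name At1g29670 held the most abundant member of the family, and it was the only name with calls in both directions. GH_D05G1560 had 146, 160 and 111 FPKM in the transgenic libraries, against 111, 139 and 79.6 FPKM in the wild-type libraries. The groups overlapped, and it was not called (log2 0.36, adjusted p = 0.377). GH_A05G1531 had 73.1, 76.0 and 60.8 FPKM in the transgenic libraries and 48.1, 48.6 and 37.8 FPKM in the wild-type libraries (means 70.0 ± 8.07 and 44.8 ± 6.08 FPKM, SD, n = 3 each). Its ratio of 1.56 and log2 difference of 0.63 were called (adjusted p = 0.0461), but not after median-of-ratios or upper quartile scaling, without a filter or without the variance trend (adjusted p up to 0.0752), nor whichever library was left out (adjusted p 0.0502 to 0.169).

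GH_D05G2762, of the same name, fell to 6.11, 5.29 and 5.50 FPKM in the transgenic libraries, against 15.7, 9.51 and 10.9 FPKM in the wild-type libraries (log2 -0.95, standard error 0.18, adjusted p = 0.0319). The other fall was that of GH_D05G2498, At3g27950-like, with 1.199, 1.44 and 0.753 FPKM in the transgenic libraries and 3.47, 3.21 and 4.42 FPKM in the wild-type libraries (log2 -1.15, standard error 0.20, adjusted p = 0.0226). The transgenic means were 46.9% and 30.6% of the wild-type means. Both genes lie on chromosome D05, and both calls ended without transgenic library 2, transgenic library 3 or wild-type library 1, the first also without transgenic library 1 (adjusted p up to 0.129 and 0.0913). The call of GH_D05G2762 also ended without a filter (adjusted p = 0.0503), and that of GH_D05G2498 with the replicate block (adjusted p = 0.0591). GH_D01G2367, At5g03820-like, had non-overlapping groups in the same direction, with 1.83, 2.17 and 1.33 FPKM in the transgenic libraries and 4.44, 3.01 and 3.44 FPKM in the wild-type libraries; it was not called (log2 -0.74, adjusted p = 0.072).

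Of the 31 members with a mean of at least 10 FPKM 3 were called, 9.68% against 5.7% of all tested genes. The groups did not overlap in 10 of the 31, 32.3% against 30.1% of all tested genes. Both backgrounds include genes under 10 FPKM, so they are not matched to these 31. GH_A07G2134, At2g04570-like, had 63.7, 55.7 and 105 FPKM in the transgenic libraries, against 121, 70.3 and 124 FPKM in the wild-type libraries (log2 -0.49, adjusted p = 0.357). The anther-named APG genes GH_A10G0646 and GH_D10G0689 averaged 53.5 ± 1.80 and 56.0 ± 5.59 FPKM in the transgenic libraries and 51.5 ± 13.1 and 45.7 ± 8.06 FPKM in the wild-type libraries (SD, n = 3 each; adjusted p = 0.807 and 0.269). Both stood among the 8 most abundant members, and the sign for GH_A10G0646 turned after median-of-ratios scaling.

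EXL3, extracellular lipase 3, belongs to a group known in Arabidopsis from the pollen coat. GH_A06G0018 of this name had 90.9, 85.2 and 67.3 FPKM in the transgenic libraries, against 56.4, 31.9 and 10.8 FPKM in the wild-type libraries. The groups did not overlap and the means of 81.1 ± 12.3 and 33.0 ± 22.8 FPKM (SD, n = 3 each) differed 2.46-fold, but the wild-type libraries spread widely and the gene was not called (log2 1.53, adjusted p = 0.127). GH_D03G0073, also EXL3-like, had 39.8, 30.5 and 31.3 FPKM in the transgenic libraries and 47.6, 61.9 and 26.3 FPKM in the wild-type libraries (adjusted p = 0.526).

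**Figure D3:**
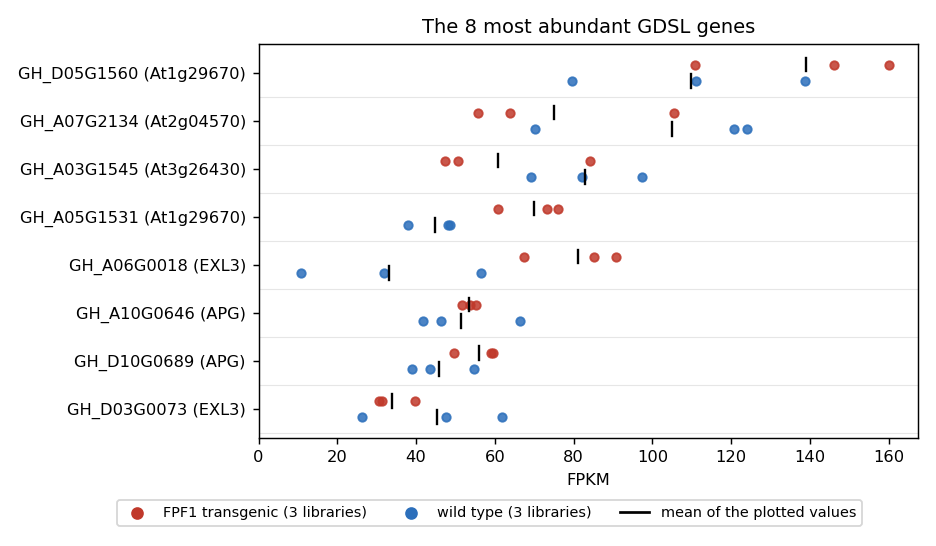
FPKM of the 8 GDSL genes with the highest mean over all 6 libraries, 1 gene per row, with red points for the 3 FPF1 transgenic libraries, blue points for the 3 wild-type libraries and black bars for the mean. Only GH_A05G1531 and GH_A06G0018 show groups that do not overlap, and the wild-type libraries of GH_A06G0018 run from 10.8 to 56.4 FPKM.

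Genes with a cuticle term varied widely between libraries of a group. At5g33370 is a cutin synthase of Arabidopsis, and it, At5g18430 and At4g28780 supplied the 12 cotton genes with the term cuticle development, 9 of them tested and none called by limma (1 higher and 0 lower at an unadjusted p under 0.05; median log2 0.39). Their summed level was 75.7, 112 and 196 FPKM in the transgenic libraries 1 to 3 and 97.5, 45.9 and 88.9 FPKM in the wild-type libraries 1 to 3. Wild-type library 2 was the lowest of its group in all 9, at 0 to 0.700 of the group mean. Transgenic library 3 was the highest of its group in all 9, and transgenic library 1 the lowest in 8. Over all tested genes wild-type library 2 was the lowest of its group in 35.8%, and over all 103 tested members in 48.5%. Transgenic library 1 was the lowest of its group in 40.1% of all tested genes and 58.3% of the members. The pattern was not confined to the cuticle term. Wild-type library 2 was also the lowest in all 3 tested genes of At3g27950 and of At5g55050, while other names went the other way.

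GH_D08G2460, At5g18430-like, was the most abundant of them. It had 29.1, 38.2 and 80.2 FPKM in the transgenic libraries and 30.8, 15.8 and 30.0 FPKM in the wild-type libraries (log2 0.85, adjusted p = 0.245). GH_D13G1163, At5g33370-like, had 2.16, 5.56 and 12.7 FPKM in the transgenic libraries and 5.997, 2.54 and 7.75 FPKM in the wild-type libraries (log2 0.13, adjusted p = 0.909), with groups that overlapped; the sign turned without transgenic library 3 or wild-type library 2. LTL1, named in Arabidopsis for lithium tolerance, lacks the cuticle term here, which does not place it outside the cuticle. It was likewise lowest in transgenic library 1 and wild-type library 2 of their groups. Its more abundant gene, GH_D08G2459, had 5.40, 10.1 and 15.8 FPKM in the transgenic libraries, against 10.2, 4.49 and 7.01 FPKM in the wild-type libraries.

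The pair of At4g28780 genes, of which GH_A07G2290 carries the cuticle term, lay higher in every transgenic library. GH_D07G2235 was at 21.3, 31.4 and 40.2 FPKM in the transgenic libraries, against 10.3, 3.62 and 15.0 FPKM in the wild-type libraries (log2 1.72, adjusted p = 0.0703), and GH_A07G2290 at 10.9, 18.4 and 24.1 FPKM against 8.58, 3.62 and 10.9 FPKM in the wild-type libraries (log2 1.15, adjusted p = 0.136). The groups did not overlap in either gene, though in GH_A07G2290 they came within rounding of each other. GH_D07G2235 was called without wild-type library 3 (adjusted p 0.0364 to 0.210 over the fits that left out 1 library).

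Genes named after GDSL esterase/lipase 1, a secreted lipase of Arabidopsis that acts in ethylene-dependent resistance to fungi, ran the other way among the wild-type libraries. All 4 tested genes were highest in wild-type library 2, at 1.57 to 1.90 times the wild-type mean. GH_A05G1422 had 10.9, 11.2 and 5.32 FPKM in the transgenic libraries and 9.45, 22.8 and 3.798 FPKM in the wild-type libraries. None was called by limma (0 at an unadjusted p under 0.05), and the log2 differences lay between -0.86 and -0.09. The sign for GH_A05G1422 turned without transgenic library 3 or wild-type library 2. The difference between the wild-type libraries was not tested.

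**Figure D4:**
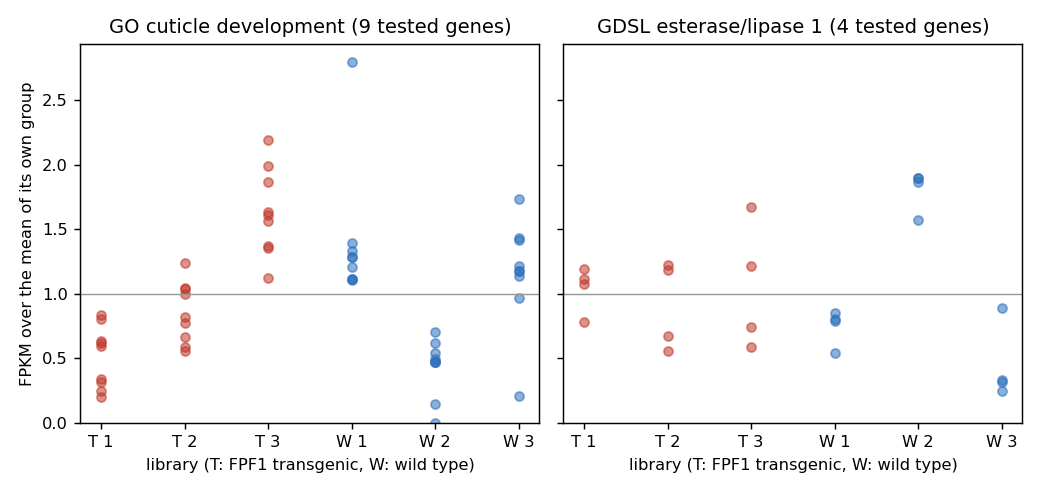
Level of each tested gene in a library, divided by the mean of that library's own group (1 on the vertical axis), for the 9 tested genes with the term cuticle development on the left and the 4 tested GDSL esterase/lipase 1 genes on the right. Red points are FPF1 transgenic libraries (T 1 to T 3), blue points wild-type libraries (W 1 to W 3). Wild-type library 2 lies between 0 and 0.700 for all 9 genes on the left and at 1.57 or more for the 4 on the right.

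Among the 13 rises transgenic library 1 was the lowest of its group in 9, and transgenic library 3 the highest in 9. Each of these counts was 60 over the 103 tested members. Among all genes called higher, transgenic library 1 was the lowest in 57.4% and transgenic library 3 the highest in 45.6%. The 13 genes summed to 152, 183 and 189 FPKM in the transgenic libraries and to 62.5, 66.9 and 55.7 FPKM in the wild-type libraries, or 11.9% to 13.1% of the family's level in the transgenic libraries and 5.05% to 6.34% in the wild-type libraries. GH_A05G1531, with the smallest ratio of the 13, held the largest level.

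At4g10955, the name with the most genes, had 17, of which 9 were tested and none called by limma (0 at an unadjusted p under 0.05), with log2 differences of -0.13 to 0.44. GH_D12G2582, its most abundant, averaged 11.8 ± 1.27 FPKM in the transgenic libraries and 11.9 ± 1.88 FPKM in the wild-type libraries (SD, n = 3 each). GH_D13G0167, the most abundant of the CPRD49 genes, named after a transcript of cowpea under dehydration, had 18.2, 23.0 and 25.4 FPKM in the transgenic libraries and 16.4, 15.1 and 14.8 FPKM in the wild-type libraries. Its groups did not overlap and it was not called (log2 0.48, adjusted p = 0.0846), except without transgenic library 1 (adjusted p 0.0433 to 0.243 over the fits that left out 1 library). Among the most abundant genes of other names, GH_D10G0359 (At1g29660-like) had 10.4, 14.7 and 14.6 FPKM in the transgenic libraries and 10.9, 6.76 and 6.62 FPKM in the wild-type libraries (log2 0.67, adjusted p = 0.113). The groups overlapped, as they did for GH_D01G0793 (At5g55050-like, log2 -0.35, adjusted p = 0.311), GH_A07G2495 (At3g27950-like, log2 0.13, adjusted p = 0.768) and GH_D13G1560 (At4g26790-like, log2 -0.04, adjusted p = 0.899). Names at or near 0 throughout included At1g71250, with 3 genes at 0 in every library, and GDSL esterase/lipase 7 and 6.

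**Figure D5:**
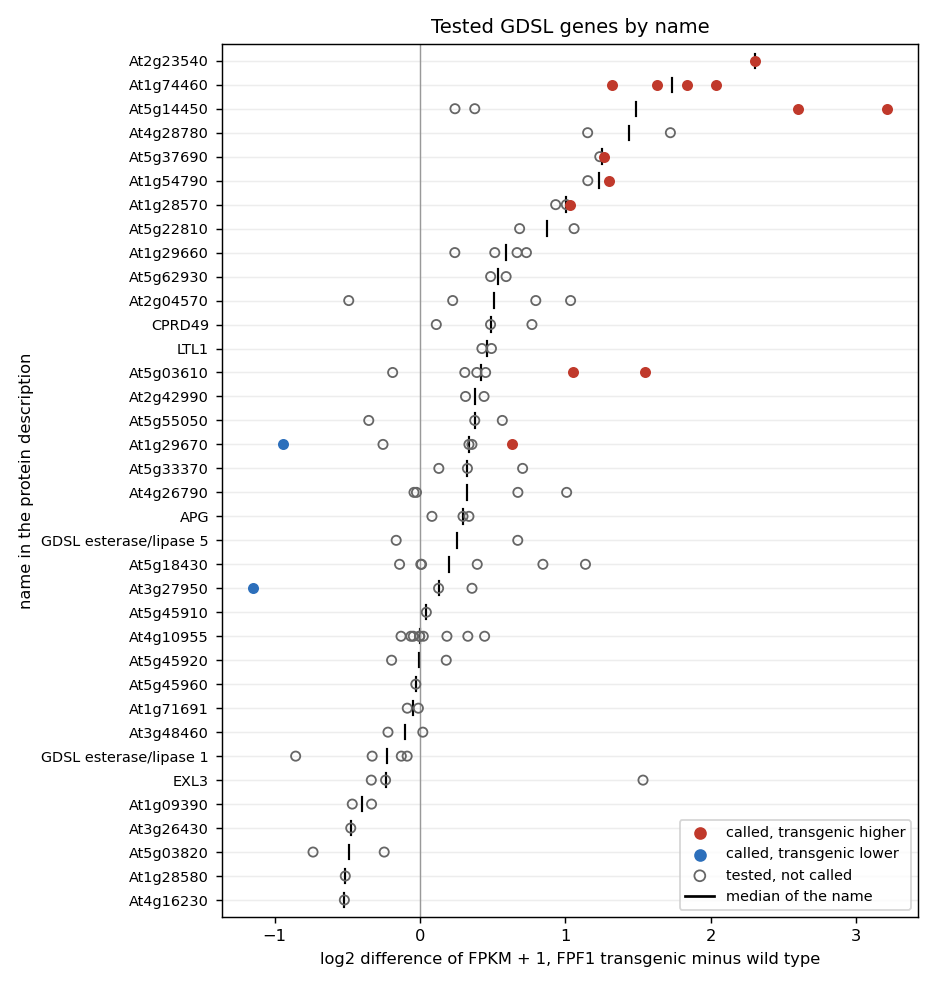
Log2 difference of FPKM + 1 (FPF1 transgenic minus wild type) for each of the 103 tested GDSL genes, grouped on the vertical axis by the name in the protein description and ordered by the median of the name, shown as a black bar. Filled red points were called higher, filled blue points called lower, open points were tested and not called. All 4 At1g74460 genes are filled, and At1g29670 holds a call on each side of 0.

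The members lie on all 26 chromosomes, with 98 on the A and 93 on the D subgenome, and 3 to 15 per chromosome. Of the tested members 6 of 49 on A and 9 of 54 on D were called, against 5.7% of all tested genes. In gene number 51 members stood directly beside another member, in 23 runs of up to 4 genes, and 2 of these runs held a called gene, those on A03 and D02. Levels within a run could differ widely, as for GH_A10G0646 at a mean of 52.5 FPKM over all libraries beside a neighbour at 0.

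Other genes of cuticle and barrier lipids were taken from lists of protein descriptions. Of 87 tested genes in the list for the synthesis of cutin and suberin 22 rose and none fell, or 25.3% against the 3.92% of all genes. By description, omega-hydroxypalmitate O-feruloyl transferase, which adds ferulate to suberin in Arabidopsis, rose in 6 of 10 tested genes, and cytochrome P450 86A1, a fatty acid hydroxylase, in 5 of 7. Glycerol-3-phosphate acyltransferase 5 rose in all 3 tested genes, long chain acyl-CoA synthetase 2 in both, and cytochrome P450 86B1 in 2 of 3. The other 4 rises were 1 each of long chain acyl-CoA synthetase 1 (2 tested), cytochrome P450 77A4 (4 tested), HOTHEAD (9 tested) and a putative glycerol-3-phosphate acyltransferase 8 (1 tested). The remaining names had no call, which does not show that their genes were unchanged. At an unadjusted p under 0.05 by limma, 41 of the 87 were higher and 6 lower. Without a call were glycerol-3-phosphate 2-O-acyltransferase 6, cytochrome P450 86A22 and cytochrome P450 77A3 (4 tested each), cytochrome P450 86A8 (2 tested) and others. The smallest adjusted p was that of GH_D03G1975, an omega-hydroxypalmitate O-feruloyl transferase with 16.5, 20.4 and 20.2 FPKM in the transgenic libraries and 2.61, 3.38 and 3.05 FPKM in the wild-type libraries (log2 2.32, adjusted p = 0.000688).

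Of 77 tested wax genes 9 rose and none fell, or 11.7% rising against 3.92% of all tested genes. GH_D02G2365, 3-ketoacyl-CoA synthase 4-like, which extends fatty acid chains, averaged 12.4 ± 1.94 FPKM in the transgenic libraries and 2.81 ± 0.777 FPKM in the wild-type libraries (SD, n = 3 each; log2 1.82, adjusted p = 0.00598). Lipid-transfer proteins had 8 rises and 2 falls among 53 tested, or 15.1% and 3.77% against 3.92% and 1.78% of all tested genes. Among them GH_A12G0038 rose (log2 1.99, adjusted p = 0.00704) and GH_A12G0543 fell (log2 -2.14, adjusted p = 0.01). None of 8 tested transporters of the types ABCG11 and ABCG32, exporters of cuticle lipids, was called by limma (4 higher and 1 lower at an unadjusted p under 0.05), and 246 lipases and esterases of other families gave 7 rises and 4 falls among 151 tested, near the background. Their leading calls were GH_A06G1884, phospholipase C 2-like (log2 1.42, adjusted p = 0.00474), and GH_D13G0023, triacylglycerol lipase SDP1-like, which starts the breakdown of stored oil in Arabidopsis seedlings (log2 -0.83, adjusted p = 0.0295). Over these lists together rises numbered 46, and 6 without transgenic library 2, 18 without transgenic library 3 and 13 without wild-type library 1.

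Among the lists of cell-type markers, only that of the xylem secondary wall had a higher sum in every transgenic library than in any wild-type library. The 36 listed genes of that wall summed to 47.5, 75.5 and 97.1 FPKM in the transgenic libraries. In the wild-type libraries they summed to 12.6, 13.1 and 10.97 FPKM. Of 15 tested, 10 rose, against 3.92% of all tested genes, and 7 of the 36 were at 0 throughout. Genes of this list, and of the lipid lists above, could pass the filter through the transgenic libraries alone, which favours a rise. How many did so is not split out here. Transgenic library 1 was the lowest and transgenic library 3 the highest of its group in the xylem sum too. Leaf mesophyll markers fell in 23 of 46 tested genes and rose in 2, against 1.78% and 3.92% of all tested genes. Sums for pollen and anther (305 to 326 FPKM in the transgenic libraries, 265 to 312 FPKM in the wild-type libraries), floral organs (332 to 388 and 336 to 370 FPKM) and seed (143 to 194 and 174 to 450 FPKM) overlapped between the groups, while dividing cells gave 147 to 166 FPKM in the transgenic libraries and 172 to 187 FPKM in the wild-type libraries. The lists match words such as AGAMOUS, pollen or anther in the descriptions, so their genes need not be particular to those cells. The part of these markers in the changes of GDSL genes was not tested.

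The authors' deposited table marks 29 members as significant, 25 up and 4 down, or 15.2% of the 191 against 5.12% of all genes listed. They include 14 of the 15 genes called here, the exception being GH_A05G1531, whose deposited ratio is 1.56 and deposited q-value 0.0448. The marks do not follow a q-value under 0.05, since GH_A01G0808 is marked with a deposited q-value of 0.0956. The shares are thus not on the same threshold as the calls here. The test behind that table is not given in the sources used here.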

How the data were processed

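Poly-A selected leaf RNA of 3 FPF1 transgenic and 3 wild-type samples was sequenced, per the labels' protocols. The authors deposited FPKM per gene and library, per the file headers, with a floor of 1e-04 where no expression was estimated, which was read as 0. Per the file headers the authors also deposited a fold change (the ratio of the mean FPKM, transgenic over wild type), its log2, and a p-value and q-value of an unnamed test. Aligner, counting program, genome build and strand setting are not given in the sources used here. Cotton carries A and D copies of most genes, so close copies may share reads. Counts were not analysed here, so the depth behind each value is unknown.

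All 43837 genes averaging 1 FPKM or more in either group were fitted in limma 3.58.1 (R 4.3.3) on log2(FPKM + 1), with a mean-variance trend and robust estimation, two-sided, without covariates, and p was adjusted by Benjamini-Hochberg over all of them. Calls were made where that value was under 0.05. Positive log2 differences mean higher in the transgenic libraries, and the pseudocount of 1 makes them smaller than the ratio of means for low genes. Alternatives were pseudocounts of 0.1 and 0.5, other filters, scalings and variance models, a replicate block, and each library left out.

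Members and lists were chosen with earlier results of these data known. Named genes were every called member, the 8 most abundant, uncalled members with the largest differences among those whose groups did not overlap (up to 5 per direction), the most abundant of each name with at least 3 tested genes, members at 0 throughout a group, the runs with a called gene, and the leading call of each list in each direction. GH_D08G2459 was named after its values were seen, and GH_A07G2540 was also named outside these rules. Lists are regular expressions in the descriptions. The cutin and suberin list also caught 15 membrane-lipid acyltransferases and the wax list 5 dienoyl-CoA reductases, none called. The first list further took long chain acyl-CoA synthetases 4, 6, 7, 8 and 9, without a call. Their part in cutin or suberin was not checked.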

Additional observations from a re-analysis of the deposited data

How the results depend on the processing

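Against 13 rises among GDSL genes, 11 to 14 members were called higher under the other pseudocounts, filters, scalings and variance models and the replicate block, and 3 to 14 when 1 library was left out. These counts include members outside the 13, of which 10 to 13 stayed called in the first set of settings and 3 to 11 in the second. Against 2 falls, 1 member was called lower without a filter and 1 with the replicate block, and 0 to 2 when 1 library was left out. Over all genes, 1720 rises became 1029 and 780 falls became 503 with the replicate block, and leaving out 1 library gave 182 to 1561 rises and 107 to 1060 falls. For the related lists, 46 rises became 6 to 46 when 1 library was left out. Their 6 falls numbered 3 without a filter, 3 with the replicate block, 10 after median-of-ratios scaling and 0 to 11 when 1 library was left out. The cause of these shifts was not tested.

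Same-numbered libraries of the 2 groups deviated together with correlations of 0.0136, 0.0261 and 0.074 across genes, so the replicate numbers were not taken to pair samples, and not every library correlated best with its own number. With the block 12 members were called, 11 of them among the 15. GH_D11G2980, GH_D05G2498, GH_D05G3889 and GH_A12G0963 were lost and GH_D08G0584 was gained (adjusted p = 0.0404).

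The sign of uncalled genes near 0 turned in a few settings. GH_A10G0646 stood at -0.0079 after median-of-ratios scaling. With 1 library left out, log2 differences ran from -0.70 to 0.45 for GH_A05G1422, from -0.015 to 0.32 for GH_A07G2495, from -0.0528 to 0.28 for GH_A10G0646, from -0.11 to 0.0995 for GH_D12G2582, from -0.40 to 0.66 for GH_D13G1163 and from -0.16 to 0.0695 for GH_D13G1560. FPKM without counts leaves the precision of genes near 1 FPKM unknown.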
